A study of Mus musculus with 13 samples.

Results

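The mitochondrial chromosome of the mouse carries 37 genes, and all 37 were found among the 39171 genes of a table of FPKM, fragments scaled to gene length and library depth. They were chosen by name alone, as the genes whose symbol starts with mt-. The set holds 13 mRNAs, 22 tRNAs and 2 rRNAs. The table gave no symbol for 24 of them, which were matched through the gene identifier. The cells came from spinal cords of C57BL/6 mice without Il33 (Il33 KO) and of WT littermate controls, and were separated by fluorescence-activated sorting. The Il33 product is a nuclear alarmin cytokine, which binds the receptor ST2. KO microglia (3 libraries) and WT microglia (3 libraries) were sorted by CD11b, a surface protein that other myeloid cells also carry, at postnatal day 12. KO astrocytes (4 libraries) and WT astrocytes (3 libraries) were sorted by green fluorescence under the astrocyte gene Aldh1l1, at day 12 except for KO library 2 and WT library 3, which were taken at day 9. Each library is a biological replicate, per the series' design text. The sex of the mice is not given in the sources used here.

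Both strands of the mitochondrial chromosome are transcribed by a dedicated RNA polymerase into long precursors that span many genes. The tRNAs lie between most of the mRNAs and rRNAs, and cutting at their ends releases the single RNAs. The mRNAs encode core subunits of the respiratory chain and of the ATP synthase, and the rRNAs and tRNAs serve the ribosomes that translate them inside the organelle. The products work only together with subunits encoded in the nucleus.

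The markers of each sorted cell type were high in its own libraries. The summed FPKM of 6 microglia markers lay between 4212 and 4572 in microglia and between 19.6 and 47.8 in astrocytes, and that of 7 astrocyte markers between 61.3 and 99.6 in microglia and between 5826 and 10364 in astrocytes. P2ry12 and Csf1r led the first list, at 1284 and 1270.3 FPKM on average in KO microglia, and Aldoc led the second, at 2864 FPKM in KO astrocytes. The lowest astrocyte sums, 5826 and 5831, come from the libraries where the marker Slc1a2 was listed at 0. Oligodendrocyte markers were high too: 7 of them summed to 1012 to 2456 FPKM in microglia and to 4179 to 7730 FPKM in astrocytes, where Mbp, a myelin protein gene, averaged 4607 FPKM in KO and 3552 FPKM in WT libraries. Il33 itself was at 0.424 to 2.28 FPKM in KO astrocytes and at 96.3 to 113 FPKM in WT astrocytes, and in both groups of microglia it stayed at or below 1.26 FPKM. The absolute depth is unknown. A rough estimate from the steps between low values puts the astrocyte libraries at 33.9% to 62.7% and the microglia libraries at 73.4% to 100% of the depth of KO microglia 2. It rests on few genes, in WT astrocytes 2 on 33 of 1763 compared, and the scaling between libraries is not known. Low astrocyte values may thus carry more counting error.

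Of the 37 members, 9 were listed at exactly 0 in at least 1 library. Such a value can be a failed estimate. The astrocyte glutamate transporter Slc1a2, a nuclear gene, was likewise listed at 0 in KO astrocytes 3 and WT astrocytes 1 and at 1631 to 3996 FPKM in the other 5 astrocyte libraries. None of the 31 nuclear protein-coding genes with a median of at least 1000 FPKM over the libraries was at 0 in any of them, whereas 4 of the 599 with a median of at least 100 FPKM were (Enho, Wnt7a, Tst and Gm17364). Both rRNAs, mt-Rnr1 (12S) and mt-Rnr2 (16S), were listed at 0 in all 13 libraries, although they are among the most abundant RNAs of most cells. mt-Co1, which encodes the catalytic subunit of cytochrome c oxidase, and its neighbour mt-Ts1, a serine tRNA, were listed at 0 together in 6 of 7 astrocyte libraries. In the remaining one, WT astrocytes 3, mt-Co1 was at 15627 FPKM and mt-Ts1 at 231125 FPKM, and in the 6 microglia libraries mt-Co1 was at 3972 to 8625 FPKM and mt-Ts1 at 61968 to 127865 FPKM. A drop of mt-Co1 in astrocytes therefore cannot be read from these values, and no fold change is given against them. The ends of the pair are shown because they share bases on opposite strands (chrM:6870-6872, GRCm38), given in capitals:
mt-Ts1, chrM:6870-6938, minus strand: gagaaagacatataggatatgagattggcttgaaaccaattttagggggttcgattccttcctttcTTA
mt-Co1, last bases, chrM:6813-6872, plus strand: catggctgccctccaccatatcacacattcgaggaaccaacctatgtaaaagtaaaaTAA

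The other zeros fell on 5 tRNAs and all of them in KO microglia. The aspartate tRNA mt-Td was listed at 0 in KO libraries 2 and 3 and at 64.9 FPKM in KO library 1, against 474, 122 and 1137 FPKM in WT microglia. mt-Th (histidine) was at 0 in KO microglia 3, mt-Tt (threonine) in KO microglia 1, and mt-Ts2 (serine) and mt-Tl2 (leucine) in KO microglia 2. No fold change is given for these 5 between genotypes in microglia. The heat map of all members shows the pattern of zeros.

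**Figure D1:**
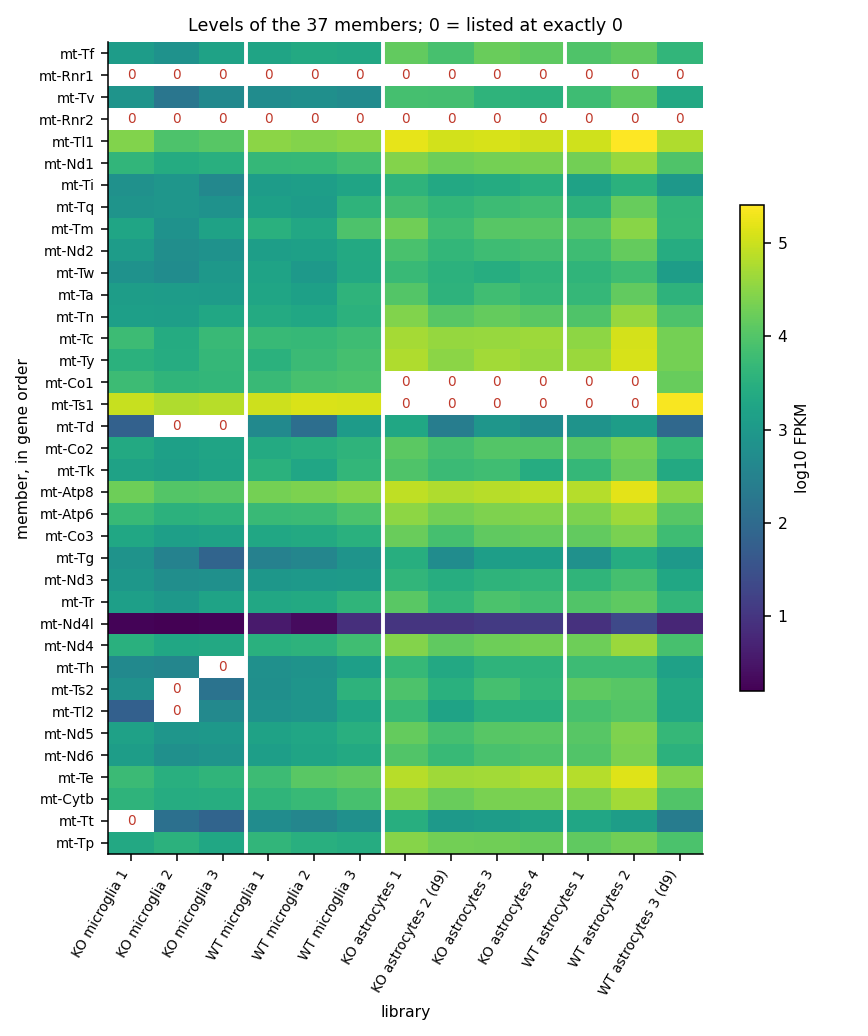
Level of each of the 37 members (rows, in gene order along the chromosome) in each of the 13 libraries (columns), as log10 FPKM in colour. White cells with a red 0 were listed at exactly 0: both rRNAs in all 13 libraries, mt-Co1 and mt-Ts1 in 6 astrocyte libraries, and 5 tRNAs in KO microglia.

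Among the mRNAs, mt-Atp8, a small subunit of the ATP synthase, had the highest FPKM in every group. It averaged 13355 ± 4189 FPKM in KO microglia and 24977 ± 4948 in WT microglia (SD, n = 3 each), and 74117 ± 9761 in KO astrocytes (n = 4) and 84962 ± 62866 in WT astrocytes (n = 3). The authors' mean normalised counts in WT microglia, not scaled to length, were 13731 for mt-Atp8 (204 bases) and 128424 for mt-Nd5 (1824 bases). Set against these lengths, the counts do not show the lead that mt-Atp8 has over mt-Nd5 in FPKM. FPKM of genes this short, the tRNAs included, may thus not rank abundance. mt-Atp6, a further subunit of the ATP synthase, lies on the same mature mRNA as mt-Atp8. The FPKM ratio of mt-Atp8 to mt-Atp6 was 3.01 to 3.58 in KO microglia, 3.55 to 4.13 in WT microglia, 2.47 to 3.11 in KO astrocytes and 2.80 to 3.51 in WT astrocytes. mt-Atp8 is 204 bases long, and its last 43 bases (capitals) also belong to mt-Atp6:
mt-Atp8, chrM:7766-7969, plus strand: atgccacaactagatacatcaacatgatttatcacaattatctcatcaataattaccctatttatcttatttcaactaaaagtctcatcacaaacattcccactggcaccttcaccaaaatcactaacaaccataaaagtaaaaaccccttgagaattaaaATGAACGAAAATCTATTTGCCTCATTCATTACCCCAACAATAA

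The order below mt-Atp8 was alike in the 4 groups. mt-Atp6, mt-Cytb (cytochrome b of complex III), mt-Nd1 and mt-Nd4 (complex I) followed, with mt-Co1 second in microglia, and most neighbours in this order overlapped in range. mt-Co2 and mt-Co3 (complex IV), mt-Nd5, mt-Nd6 and mt-Nd2 (complex I) came next. mt-Nd3, at 700 ± 158 FPKM in KO microglia and 1008 ± 99.0 in WT microglia, was the lowest but one. The lowest was mt-Nd4l, with 1.70 ± 0.123 FPKM in KO microglia, 4.60 ± 2.95 in WT microglia, 11.1 ± 1.39 in KO astrocytes and 12.1 ± 8.72 in WT astrocytes.

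mt-Nd4l shares its mature mRNA with mt-Nd4, yet mt-Nd4 had 806 to 2702 times its FPKM over the 13 libraries. The gene has a nuclear copy on chromosome 1, the pseudogene Gm10222, which is identical to it over 294 of its 297 bases and was listed at a like level, from 0.780 to 2.00 FPKM in KO microglia and 3.26 to 4.996 in WT microglia. How the authors' counting divided reads between such copies is not given, so values of mt-Nd4l are uncertain. Its last 60 bases end in 7 bases shared with mt-Nd4 (capitals):
mt-Nd4l, last bases, chrM:10114-10173, plus strand: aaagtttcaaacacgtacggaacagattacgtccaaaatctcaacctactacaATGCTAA

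Nuclear copies of at least 95% identity over at least 100 bases were found in the annotation for 9 members. The table held 5 of them: Gm13340 (mt-Co1), Gm13341 (mt-Co2), Gm13339 (mt-Nd2), Gm10222 (mt-Nd4l) and Gm4076 (mt-Nd5). The other 6, all on chromosome 1, copy stretches of mt-Atp6, mt-Co1, mt-Co2, mt-Co3, mt-Nd3 and mt-Nd4 at 99.7% to 100% identity and had no row of their own. Gm13340 aligned to all 1545 bases of mt-Co1 at 97.6% identity. It was listed at 2.83 to 4.21 FPKM in KO microglia, 4.59 to 6.25 in WT microglia, 20.04 to 30.7 in KO astrocytes and 12.2 to 60.02 in WT astrocytes. Gm13340 was thus above every microglia library in each astrocyte library, also in WT astrocytes 3, where mt-Co1 was not listed at 0. The copies Gm13341, Gm13339 and Gm4076 averaged 1.51, 1.05 and 2.98 FPKM in KO microglia, 3.36, 1.63 and 6.19 in WT microglia, 10.6, 4.35 and 30.7 in KO astrocytes, and 15.3, 6.40 and 45.5 in WT astrocytes.

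In KO microglia, all 35 members tested were lower than in WT microglia, but none passed the threshold, and with quantile normalisation the tRNAs mt-Tc, mt-Ty and mt-Tp lay above 0 (0.27, 0.05 and 0.03). The 13 mRNAs had a median log2 difference of -0.81, from -1.02 for mt-Nd6 to -0.54 for mt-Nd3, where the median of all 15889 genes tested was 0.02. With quantile normalisation the mRNA median was -0.36, from -0.99 to -0.05. The ratio of KO to WT means had a median of 0.558 over the 13 mRNAs. limma called 0 of the 35 members at an adjusted p under 0.05, against 13 genes, or 0.0818%, of all tested, and the adjusted p of the mRNAs lay between 0.556 and 0.602. At an unadjusted p under 0.05, 21 members were lower in KO (8 mRNAs and 13 tRNAs), where 3.67% of all genes were. Of the 21, mt-Td and mt-Tt hold a listed 0 in KO microglia, which leaves 19. The count of 21 was 8 with no filter on low values or with quantile normalisation, 14 with equal nuclear sums and 11 with the replicate block. It was 4 without KO microglia 2, 10 without KO microglia 3, 11 without WT microglia 2 and 5 without WT microglia 3. The share of all genes at this threshold was not computed for these other fits. In 26 members (10 mRNAs, 16 tRNAs) every KO library was below every WT library, which held for 7.48% of all genes. Of these 26, 4 tRNAs (mt-Td, mt-Th, mt-Tl2 and mt-Tt) hold a listed 0 in KO microglia, which leaves 22. Members share precursors and libraries, so their common direction is not 35 separate observations. In bulk samples, fewer cells of a type and less RNA per cell cannot be told apart.

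The complex I mRNAs had a median log2 difference of -0.92 over 7 genes. mt-Nd6, the single mRNA of the minus strand, had 1231, 635 and 787 FPKM in KO microglia, against 1283, 1753 and 2303 FPKM in WT microglia (log2 difference -1.02 ± 0.33, SE). Whether the libraries kept strand is not stated, so its reads cannot be told apart from those of RNA copied from the other strand. mt-Nd5, a proton-pumping subunit encoded opposite its end, had 1499, 867 and 959.5 FPKM in KO microglia, against 1610.4, 1951 and 3105 in WT microglia (-0.99 ± 0.33). KO library 1 was the highest KO library and WT library 3 the highest WT library for both genes, and the groups did not overlap. mt-Nd2 differed by -1.01 ± 0.35, mt-Nd4 by -0.81 ± 0.33 and mt-Nd1, the subunit next to the quinone site, by -0.74 ± 0.27. mt-Nd3, with 879, 581 and 640 FPKM in KO microglia and 910 to 1108 FPKM in WT microglia, differed by -0.54 ± 0.21, and the scarce mt-Nd4l by -0.92 ± 0.41.

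The mRNA of complex III, mt-Cytb, had 3875, 2630 and 2831 FPKM in KO microglia, against 3965, 4996 and 7897 FPKM in WT microglia (-0.81 ± 0.31). The 3 complex IV mRNAs differed less, with a median of -0.60. mt-Co1 had 5934, 3972 and 4382 FPKM in KO microglia, against 5462, 7683 and 8625 in WT microglia (-0.60 ± 0.26), and here KO library 1 lay above WT library 1. mt-Co2 differed by -0.74 ± 0.26 and mt-Co3 by -0.59 ± 0.24. Of the ATP synthase mRNAs, mt-Atp8 had 18147, 10391 and 11525 FPKM in KO microglia, against 20872, 23588 and 30471 in WT microglia (-0.93 ± 0.29), and mt-Atp6 differed by -0.65 ± 0.27. mt-Co1, mt-Co3 and mt-Nd4 were the 3 mRNAs whose groups overlapped. The differences between complexes were not tested.

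**Figure D2:**
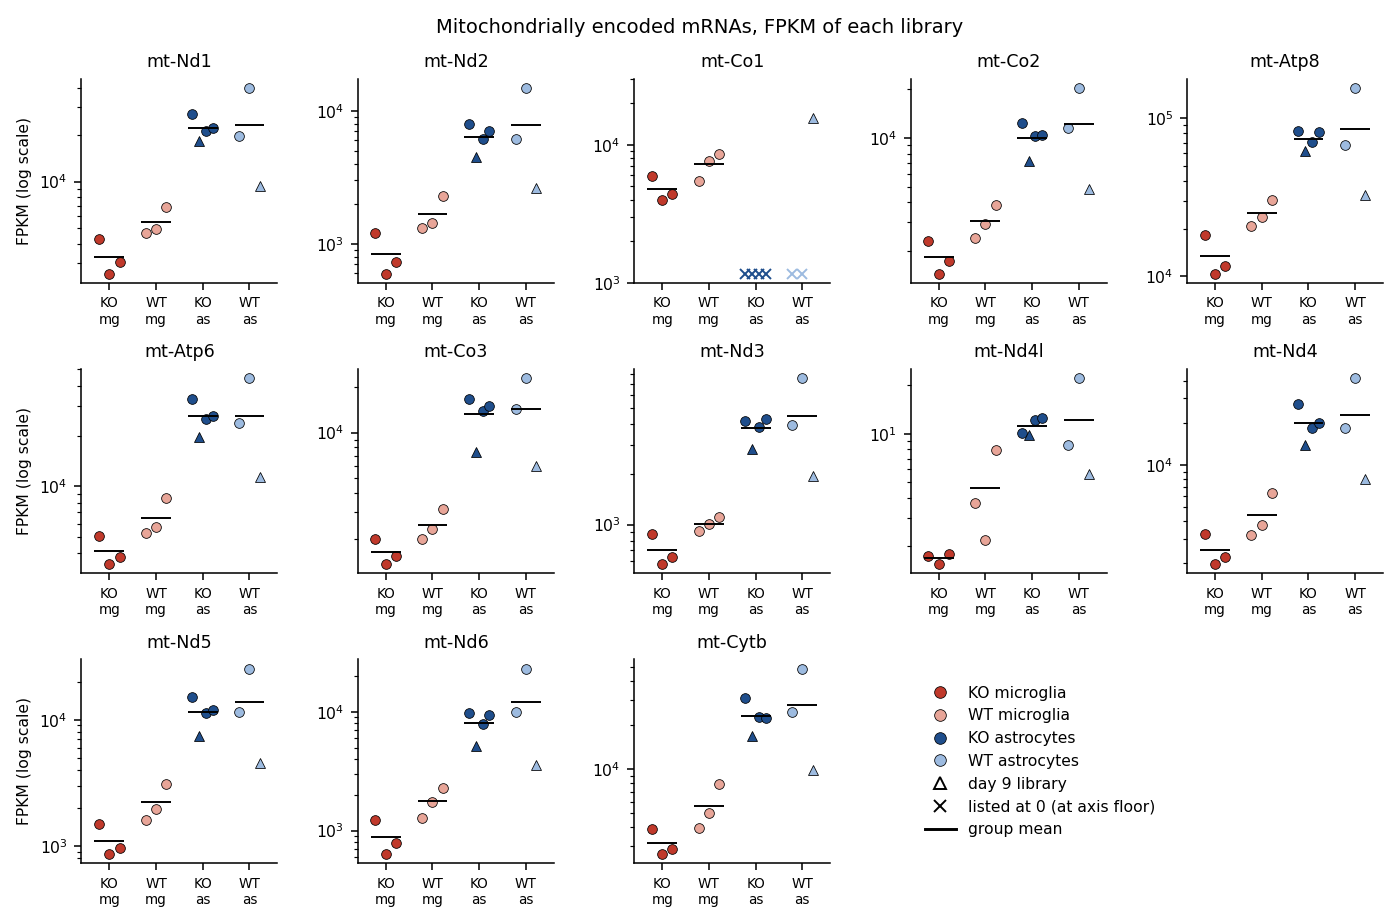
FPKM (log scale, own axis for each gene) of the 13 mRNAs in each library of KO microglia (KO mg), WT microglia (WT mg), KO astrocytes (KO as) and WT astrocytes (WT as). Points are libraries, triangles those of day 9, bars group means, and crosses values listed at 0 (drawn at the axis floor). For 12 of 12 mRNAs with no zero the astrocyte means lie above the microglia means, and in WT astrocytes library 2 is the highest and library 3 the lowest.

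The tRNAs were lower in KO microglia as well, again without a call. Their genes are 59 to 75 bases long, and reads of mature tRNAs cannot be told apart here from those of precursors that span them. The 16 tRNAs with no zero had a median log2 difference of -0.93 between KO and WT microglia, from -1.60 for mt-Tm to -0.31 for mt-Tc. The 9 of the plus strand had a median of -1.09 and the 7 of the minus strand a median of -0.75, sorted by the strand of the gene and not of the reads. The smallest unadjusted p were those of the isoleucine tRNA mt-Ti, of mt-Td and of the glutamate tRNA mt-Te. mt-Ti had 669, 859 and 422 FPKM in KO microglia, against 1210.5, 1301 and 1736 in WT microglia (-1.16 ± 0.31, limma unadjusted p = 0.00914, adjusted p = 0.533). mt-Te had 5519.5, 3069 and 4057 FPKM in KO microglia, against 6002, 11759 and 13829 in WT microglia (-1.28 ± 0.39, limma unadjusted p = 0.0177, adjusted p = 0.553). Neither pair of groups overlapped. These tRNAs are 69 to 70 bases long, and the first 2 bases of mt-Ti (capitals) also end mt-Nd1:
mt-Ti, chrM:3706-3774, plus strand: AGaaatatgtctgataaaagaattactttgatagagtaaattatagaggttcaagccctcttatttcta
mt-Te, chrM:14071-14139, minus strand: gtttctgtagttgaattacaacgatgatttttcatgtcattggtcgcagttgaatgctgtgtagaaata
mt-Td, chrM:6942-7011, plus strand: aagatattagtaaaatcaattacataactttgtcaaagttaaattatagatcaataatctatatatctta

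The authors' deposited table for microglia, which lists 483 genes (206 higher and 277 lower in KO) with an adjusted p under 0.05, holds 3 members, all lower in KO. The authors' deposited table gives mt-Nd6 a mean of 8442 normalised counts in KO and 21128 in WT microglia (adjusted p = 0.0209). In the authors' deposited table mt-Atp8 has 6566 in KO and 13731 in WT microglia (adjusted p = 0.0253). For mt-Nd5 the authors' deposited table gives 60026 in KO and 128424 in WT microglia (adjusted p = 0.0407). These rest on the same 6 libraries and are no independent evidence. The authors' deposited table for astrocytes lists 10 genes and none of the members.

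The difference between genotypes in microglia was uneven across libraries. WT microglia 3 was above its group mean in 13 of 13 mRNAs, with a median deviation of 0.41 on the log2 scale, and KO microglia 1 in 13 of 13, with 0.35. KO microglia 2 was below its group mean in 13 of 13. Without WT microglia 3 the median log2 difference of the mRNAs was -0.54, and 0 members were called by limma. As a rough share, FPKM times gene length of 12 mRNAs (mt-Co1 left out) was 1.65%, 1.03% and 1.16% of the coding sum in KO microglia. In WT microglia it was 1.67%, 1.98% and 2.96%. This product is not a count of fragments. In WT microglia it is larger for mt-Atp8 than for mt-Nd5, whereas the authors' mean normalised counts were 13731 and 128424.

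Other measures differed between the KO and WT microglia libraries too. The summed FPKM of 16 genes induced by tissue dissociation, such as Fos and Jun, was 2969 to 3380 in KO microglia and 4480 to 6028 in WT microglia. That of 6 neutrophil and monocyte markers was 55.3 to 108 in KO microglia and 132 to 258 in WT microglia, and that of 7 neuron markers 4.26 to 5.61 in KO microglia and 8.74 to 46.6 in WT microglia. Within the neuron list, Snap25 averaged 2.22 FPKM in KO and 14.5 FPKM in WT microglia, while Syt1 and Rbfox3 averaged higher in KO. The library medians of the 7 neuron markers overlapped, at 0.155 to 0.410 FPKM in KO and 0.0701 to 1.49 FPKM in WT microglia. The 7 oligodendrocyte markers summed to 1512 to 2456 in KO microglia and 1012 to 1721 in WT microglia, which overlap. Xist, which female cells express, was at 0.145 to 0.376 FPKM in KO microglia, and at 268, 283 and 0.713 FPKM in WT microglia 1, 2 and 3. As the sex of the mice is not given, a part of sex in the genotype difference cannot be told apart. The gene with the largest FPKM in the table, known by identifier only (ENSMUSG00000089855), took 28.5% to 32.5% of the summed FPKM in KO microglia, and 28.2%, 23.7% and 11.6% in WT microglia 1, 2 and 3. The part of these measures in the lower mitochondrial values was not tested. With Xist as a covariate the mRNA median was -1.25 and limma called 2 tRNAs lower, mt-Tq (adjusted p = 0.0182) and mt-Ta (adjusted p = 0.0411), in a fit that called 258 of 15889 genes, against 13 without the covariate. Among the microglia Xist was high in WT libraries 1 and 2 alone, so the genotype difference in that fit rests mainly on WT microglia 3, the WT library highest in both tRNAs (3929 FPKM for mt-Tq, 3899 FPKM for mt-Ta).

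**Figure D3:**
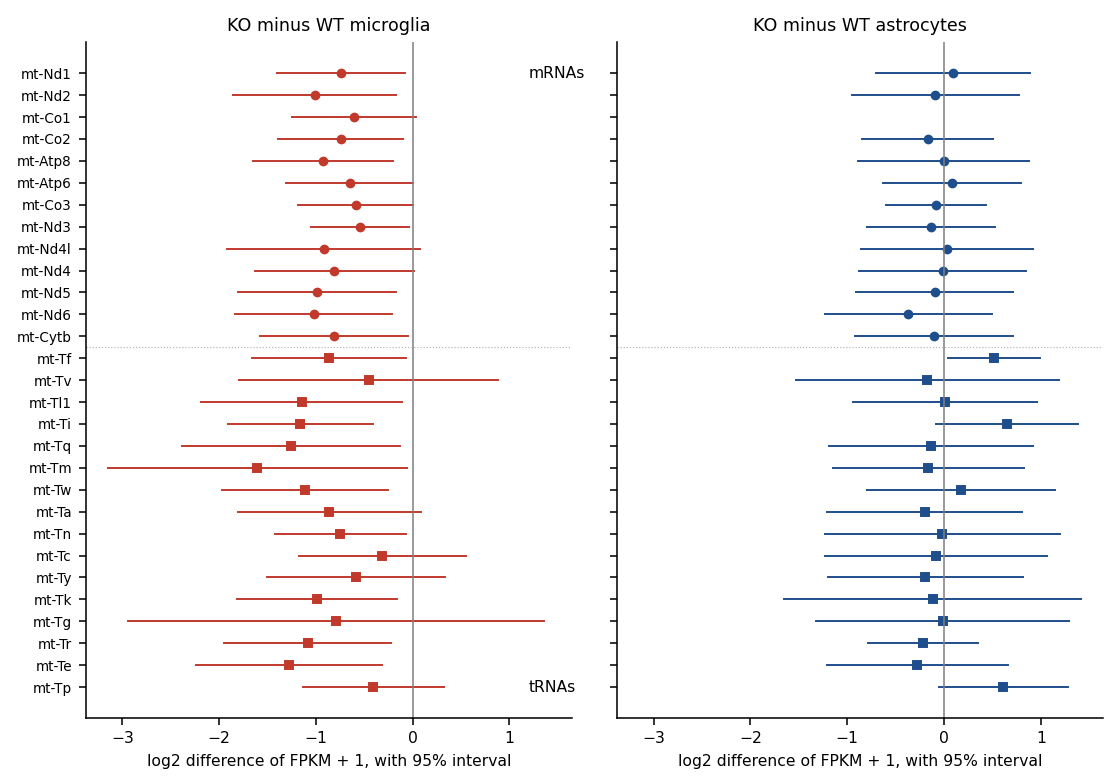
Log2 difference of FPKM + 1, KO minus WT, with its 95% interval from limma, for the 13 mRNAs (circles) and 16 tRNAs with no zero (squares), in microglia on the left and astrocytes on the right (mt-Co1 is left out there). In microglia every point is below 0 (mt-Tc, mt-Ty and mt-Tp lie above it with quantile normalisation), and in astrocytes the mRNAs lie between -0.37 and 0.09.

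The nuclear genes that make and handle mitochondrial RNA did not show a called difference between KO and WT microglia. Of all genes, limma called 0.0818%, and 3.67% were lower at an unadjusted p under 0.05. Of 17 tested genes of mitochondrial transcription and genome maintenance, 0 were called by limma, and 1 was lower at an unadjusted p under 0.05, Rnaseh1, which removes RNA from DNA hybrids (log2 difference -0.58 ± 0.22, adjusted p = 0.596). Mgme1, a nuclease of mitochondrial DNA, was at 0.70 ± 0.30. Of 22 genes of RNA processing, stability and decay, 0 were called and 0 passed an unadjusted p under 0.05 in limma; the smallest p belonged to the oligoribonuclease Rexo2 (-0.43 ± 0.25) and to Fastkd5 (0.61 ± 0.36). Of 8 factors of mitochondrial biogenesis, 0 were called by limma and 1 was higher at an unadjusted p under 0.05, the nuclear receptor Esrra. Esrra had 5.02, 4.10 and 4.30 FPKM in KO microglia, against 2.71, 1.86 and 2.69 in WT microglia (0.68 ± 0.22, limma adjusted p = 0.556), and the authors' deposited table lists it as higher in KO (adjusted p = 0.000834). The lysosomal regulator Tfeb was at 0.88 ± 0.38.

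The 25 nuclear-encoded partner subunits had a median log2 difference of -0.04 between KO and WT microglia, beside -0.81 for the mitochondrially encoded mRNAs. limma called 0 of them, and 2 were lower at an unadjusted p under 0.05, where 3.67% of all genes were. Ndufs7, of complex I, had 45.6, 49.1 and 46.1 FPKM in KO microglia, against 77.1, 63.8 and 74.4 in WT microglia (-0.60 ± 0.14, limma adjusted p = 0.509). Cox7c, of complex IV, differed by -0.47 ± 0.15 (limma adjusted p = 0.556). The summed FPKM of the partners was 1973 to 2231 in KO microglia and 2080 to 2720 in WT microglia, and these ranges overlap. The difference between the 2 sets of genes was not tested.

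In astrocytes, the KO and WT libraries overlapped in each of the 35 members tested. The 12 mRNAs with no zero had a median log2 difference of -0.09, from -0.37 to 0.09, and the median of all 13397 genes tested was 0.00. limma called 0 of 35 members, against 0.0224% of all genes, and at an unadjusted p under 0.05 it had 1 member lower and 1 higher, where 4.19% of all genes passed in either direction. Groups that do not overlap were found for 0 members and for 4.68% of all genes. mt-Tl2, a leucine tRNA, had 4989, 1639, 3247 and 3203 FPKM in KO astrocytes, against 7897, 10465 and 2069.7 in WT astrocytes (-1.01 ± 0.26, limma unadjusted p = 0.00671, adjusted p = 0.921). The phenylalanine tRNA mt-Tf differed by 0.52 ± 0.20 (limma unadjusted p = 0.0367) and the proline tRNA mt-Tp by 0.61 ± 0.28 (limma unadjusted p = 0.0657), both with an adjusted p of 0.921.

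The WT astrocyte libraries differed widely among themselves. mt-Nd5 had 15234, 7395, 11296 and 11932 FPKM in KO astrocytes, against 11533, 25303 and 4556 FPKM in WT astrocytes 1, 2 and 3. WT astrocytes 2 was above its group mean in 12 of 12 mRNAs by a median of 1.07 on the log2 scale, and WT astrocytes 3, of day 9, below it in 12 of 12 by a median of -1.11. KO astrocytes 2, the other library of day 9, was below its group mean in 12 of 12, with a median of -0.44. Without WT astrocytes 2 the mRNA median was 0.39, and over the libraries of day 12 alone it was -0.40, with 0 members called by limma in both.

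Whether the genotype difference itself differed between the cell types was tested as an interaction. The 12 mRNAs had a median interaction of -0.77, that is, KO microglia were lower relative to WT microglia than KO astrocytes relative to WT astrocytes. limma called 0 of 35 members, against 0.141% of 16258 genes, and 5 members were lower at an unadjusted p under 0.05, all of them tRNAs, where 2.69% of all genes were. Of these 5, mt-Td and mt-Tt hold listed zeros in KO microglia. The smallest p were those of mt-Ti (-1.81 ± 0.48, limma adjusted p = 0.426), mt-Td, which has zeros in KO microglia, and mt-Tf (-1.39 ± 0.39, limma adjusted p = 0.494). A different genotype effect in the 2 cell types was therefore not shown. The mRNA median was -1.21 without WT astrocytes 2, with 12 of 12 mRNAs at an unadjusted p under 0.05 and 0 members called by limma. The share of all genes at that unadjusted threshold was not computed for this fit. With either library of day 9 left out, the mRNA median was -0.44. The age term then fits the other day 9 library exactly, so both fits give the same estimate.

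Between the cell types the difference was large and passed the test. All 12 mRNAs with no zero were lower in WT microglia than in WT astrocytes, with a median log2 difference of -2.31, from -2.90 for mt-Nd6 to -1.37 for mt-Nd4l. The fit includes age, and only astrocytes had day 9 libraries, so its estimates are for day 12. The day 9 libraries lay below their group means in all 12 mRNAs. For these mRNAs the estimates are thus larger in size than plain differences of the FPKM shown. A fit without age was not run between the cell types. limma called 25 members lower, 12 mRNAs and 13 tRNAs, where 24.5% of all 16258 genes were called lower. It also called mt-Co1 and mt-Ts1 higher, which rests on their listed zeros in astrocytes (29.1% of all genes were called higher). In 22 members every WT microglia library was below every WT astrocyte library, against 25.7% of all genes. Other measures differed between these libraries too: the summed FPKM of the dissociation-induced genes was 4480 to 6028 in WT microglia and 188 to 233 in WT astrocytes, and that of the oligodendrocyte markers 1012 to 1721 in WT microglia and 4179 to 5870 in WT astrocytes. Their part in the result was not tested.

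mt-Co3 had the smallest adjusted p among the mRNAs. It had 1996, 2325 and 3131 FPKM in WT microglia, against 14183, 22682 and 6033 FPKM in WT astrocytes (log2 difference -2.78 ± 0.26, limma adjusted p = 6.75e-06). mt-Nd5 had 1610.4 to 3105 FPKM in WT microglia and 4556 to 25303 FPKM in WT astrocytes (-2.80 ± 0.40, limma adjusted p = 0.000158). mt-Nd6 differed by -2.90 ± 0.41, mt-Nd4 by -2.50 ± 0.41, mt-Nd2 by -2.34 ± 0.42, mt-Nd3 by -2.28 ± 0.29 and mt-Nd1 by -2.16 ± 0.36. Even the lowest astrocyte library, WT library 3, lay above all WT microglia libraries for 11 of the 12, the exception being mt-Nd4l, at 3.73, 2.18 and 7.89 FPKM in WT microglia and 8.55, 22.003 and 5.66 in WT astrocytes. mt-Cytb differed by -2.46 ± 0.38 and mt-Co2 by -2.17 ± 0.32. The ATP synthase mRNAs differed by -2.17 ± 0.33 (mt-Atp6) and -1.82 ± 0.39 (mt-Atp8). With quantile normalisation the sign of mt-Atp8 turned, to 0.41, without a call, and the median of the 12 mRNAs was -1.44. mt-Atp8 was also not called without the filter on low values (limma adjusted p = 0.274), nor mt-Nd4l with equal nuclear sums (limma adjusted p = 0.0569).

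Of the tRNAs, mt-Tf had 1760.4, 2300 and 2047 FPKM in WT microglia, against 9509.6, 13432 and 4278 in WT astrocytes (-2.39 ± 0.30, limma adjusted p = 6.59e-05). The tyrosine tRNA mt-Ty differed by -3.56 ± 0.47, mt-Te by -3.05 ± 0.46 and mt-Tp by -2.17 ± 0.33. The 7 minus-strand tRNAs with no zero had a median of -2.81 and the 9 plus-strand ones a median of -1.97. These strands are those of the genes, since whether the libraries kept strand is not stated. Here too, mature tRNAs and precursors cannot be told apart. mt-Ti was among those not called, with 1210.5 to 1736 FPKM in WT microglia and 936 to 3396 FPKM in WT astrocytes (-0.60 ± 0.37, limma adjusted p = 0.194).

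The same comparison among KO cells, which shares its fit and its adjustment to day 12 with the one among WT cells, gave larger values. Beside it, the dissociation-induced genes summed to 2969 to 3380 FPKM in KO microglia and 186 to 310 FPKM in KO astrocytes, and the oligodendrocyte markers to 1512 to 2456 FPKM in KO microglia and 5201 to 7730 FPKM in KO astrocytes; their part in the result was not tested. The 12 mRNAs were lower in KO microglia than in KO astrocytes by a median of -3.08 on the log2 scale, from -3.69 for mt-Nd5 to -2.33 for mt-Nd4l. mt-Nd5 had 867 to 1499 FPKM in KO microglia and 7395 to 15234 FPKM in KO astrocytes (-3.69 ± 0.37, limma adjusted p = 9.67e-06). limma called 33 members lower (12 mRNAs, 21 tRNAs), where 25.1% of all genes were, and 32 members had every KO microglia library below every KO astrocyte library, against 28.1% of all genes. Both counts include mt-Td, mt-Th, mt-Tl2, mt-Ts2 and mt-Tt, which hold listed zeros in KO microglia; without these 5, 28 members were called lower and 27 did not overlap. mt-Co1 and mt-Ts1 were again called higher only against listed zeros, where 31.9% of all genes were called higher. Among the complex I mRNAs, mt-Nd6 differed by -3.56 ± 0.38, mt-Nd4 by -3.30 ± 0.38, mt-Nd2 by -3.26 ± 0.39, mt-Nd1 by -2.99 ± 0.33 and mt-Nd3 by -2.69 ± 0.27. mt-Cytb differed by -3.17 ± 0.35, mt-Co3 by -3.29 ± 0.24 and mt-Co2 by -2.74 ± 0.29. mt-Atp6 differed by -2.91 ± 0.30 and mt-Atp8 by -2.74 ± 0.35, of which mt-Atp8 was not called without the filter on low values (limma adjusted p = 0.0722) or with quantile normalisation (-0.26, limma adjusted p = 0.378). Among the tRNAs with the smallest adjusted p, mt-Te differed by -4.05 ± 0.42, mt-Ty by -3.95 ± 0.44, mt-Tf by -3.77 ± 0.28 and mt-Tp by -3.19 ± 0.30. The test of KO against WT for this gap is the interaction given above.

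The rough share of the coding sum, from FPKM times gene length and with the limit given above, shows the same gap. The 12 mRNAs took 1.03% to 1.65% in KO microglia, 1.67% to 2.96% in WT microglia, 5.26% to 8.29% in KO astrocytes, and 3.24% to 12.3% in WT astrocytes. The libraries of the cell types did not overlap, and the closest were WT microglia 3 and WT astrocytes 3, at 2.96% and 3.24%.

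**Figure D4:**
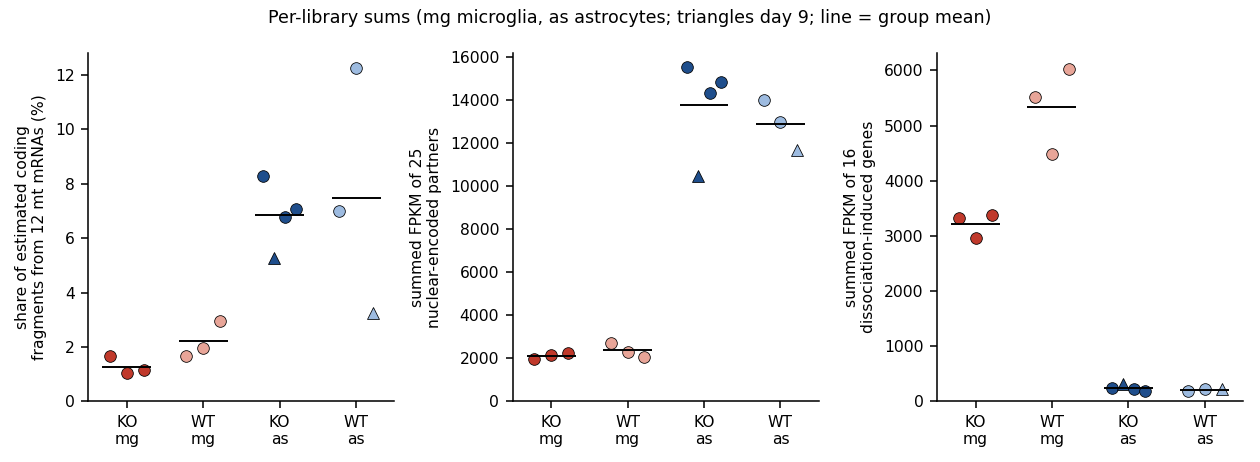
Per-library share of 12 mitochondrially encoded mRNAs in the coding sum of FPKM times gene length (left, %), summed FPKM of 25 nuclear-encoded partner subunits (middle) and summed FPKM of 16 dissociation-induced genes (right), in KO and WT microglia (mg) and KO and WT astrocytes (as). The left axis names this share estimated coding fragments, but it is not a count of fragments. Points are libraries, triangles those of day 9, and bars group means; mitochondrial shares run from 1.03% to 2.96% in microglia and from 3.24% to 12.3% in astrocytes.

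The nuclear-encoded partners were lower in microglia as well, and the difference between them and the mitochondrially encoded mRNAs was not tested. All 25 were called lower in WT microglia than in WT astrocytes by limma, with a median log2 difference of -2.37, where 24.5% of all genes were. All 25 were also called lower in KO microglia than in KO astrocytes, with a median of -2.53, where 25.1% of all genes were. Atp5b, the catalytic subunit of the ATP synthase, had 649 to 734 FPKM in WT microglia and 3961 to 4970 FPKM in WT astrocytes (-2.84 ± 0.14, limma adjusted p = 6.00e-08). The complex IV subunits Cox5b, Cox6a1 and Cox5a differed by -2.93 ± 0.17, -2.75 ± 0.18 and -2.71 ± 0.17. Their summed FPKM was 1973 to 2720 in microglia and 10462 to 15530 in astrocytes.

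**Figure D5:**
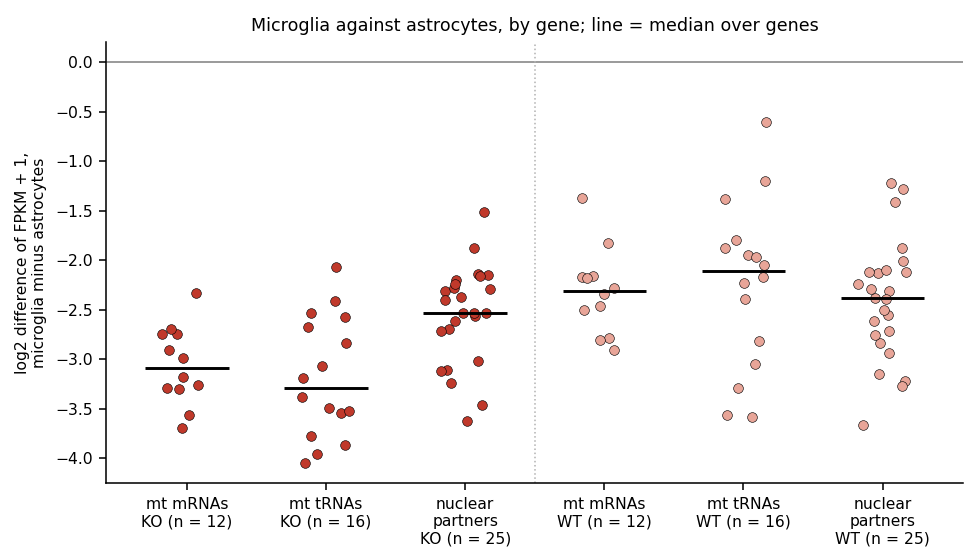
Log2 difference of FPKM + 1, microglia minus astrocytes, for each of 12 mRNAs, 16 tRNAs with no zero and 25 nuclear-encoded partner subunits, among KO cells (left) and WT cells (right). Differences come from the fit with age as a covariate. Points are genes and bars medians over genes; the mRNA medians are -3.08 among KO and -2.31 among WT cells, beside -2.53 and -2.37 for the partners.

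The genes of the mitochondrial RNA machinery were called in both directions, where 29.1% of all genes were called higher and 24.5% lower. Of 16 tested genes of transcription and genome maintenance, 6 were called higher and 2 lower in WT microglia than in WT astrocytes by limma. Among those higher were Polrmt, the mitochondrial RNA polymerase (28.7 to 97.5 FPKM in WT microglia, 5.65 to 22.3 in WT astrocytes; 2.202 ± 0.52, limma adjusted p = 0.00465), the polymerase subunit Polg2 (3.09 ± 0.40), Rnaseh1 (2.14 ± 0.37) and the primase Primpol (2.00 ± 0.51). Of 22 genes of RNA processing, stability and decay, 7 were lower and 0 higher, among them Hsd17b10, a subunit of the enzyme that cuts the 5′ ends of the tRNAs (-2.65 ± 0.47), the helicase Supv3l1 (-2.05 ± 0.50), Fastkd1 (-1.79 ± 0.45) and Rexo2 (-1.44 ± 0.24). Of 8 biogenesis factors, 3 were higher (Pprc1, 2.35 ± 0.47; Gabpb1, 1.93 ± 0.45; Nrf1, 0.79 ± 0.29) and 1 lower. That one was Ppargc1a, the coactivator of mitochondrial biogenesis, with 0.359 to 4.86 FPKM in WT microglia and 161 to 176 FPKM in WT astrocytes (-6.17 ± 0.62, limma adjusted p = 1.18e-05).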

How the data were processed

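Total RNA of sorted cells was purified with TRIZOL and columns, DNase-treated and made into libraries with NuGEN RNA-Seq V2, per the labels' protocols. The submitters' processing notes name build GRCm38 and, among other tools, TopHat2 2.0.11, HTSeq 0.6.1p1, DESeq2 and Cuffnorm. For the treatment of reads with several alignments, and for the scaling between libraries, no source was at hand. FPKM per gene and library were deposited by the authors. Per the file headers, the authors' comparison tables give, for the KO and WT group, a signal (mean normalised count), and beside it log2 fold changes of WT over KO, a score (the test statistic) and p-values.

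The members and all gene lists were chosen with earlier results of these data known. The 37 members were matched by identifier in GENCODE mouse release 21 (GRCm38), the source of coordinates, lengths and sequences. Nuclear copies were searched with blastn 2.17.0. Differences come from limma 3.58.1 (R 4.3.3; two-sided, intensity trend) on log2(FPKM + 1) of genes with a mean of at least 1 FPKM. p-values were adjusted over all of these genes by Benjamini-Hochberg, with a threshold of 0.05. The log2 scale with a pseudocount compresses differences of genes near 1 FPKM. Microglia were tested alone, astrocytes alone with age as a covariate, and the remaining contrasts over all 13 libraries with age. The text names all mRNAs and rRNAs, up to 4 called tRNAs per comparison and direction (or the 3 of smallest p), up to 4 called genes per list (or the 2 of smallest p), and nuclear copies with a group mean of at least 1 FPKM. Alternatives covered the pseudocount, the filter, the scaling, covariates, a replicate block and leaving out each library.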

Additional observations from a re-analysis of the deposited data

Results flagged for a closer look

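Of 39 values over the 4 KO astrocyte libraries (33 members and 6 ratios, shares or medians per library), 1 had a sample far from the others, and chance alone would mark about 1 group in 20. The ratio of mt-Nd4 to mt-Nd4l was 2702 in KO astrocytes 1, against 1429, 1522 and 1610.5 in KO astrocytes 2, 3 and 4. The gap to the nearest library was 0.857 of the whole range, where the critical value for 4 samples is 0.829. mt-Nd4l was at 10.1 FPKM in that library and mt-Nd4 at 27358 FPKM, and the cause was not tested. No member moved in opposite directions in every library of both cell types.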

How the results depend on the processing

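The count of called members was the same, or within 1.5 times, in all 5 comparisons under another pseudocount (0.1), no filter, quantile normalisation and equal sums of nuclear protein-coding genes. With Xist as a covariate, limma called 2 members between KO and WT microglia, among 258 genes (13 without the covariate), and the mRNA median was -1.25. Quantile normalisation gave mRNA medians of -0.36 for KO against WT microglia, -1.44 for WT microglia against WT astrocytes and -2.07 for KO microglia against KO astrocytes, and turned mt-Atp8 to 0.41 between WT microglia and WT astrocytes; the cause was not tested. In the cell type comparison of WT cells the median of all genes was 0.21, and it was 0.51 with equal nuclear sums and -0.06 with quantile normalisation; relative to it the mRNA median was -2.52, -2.48 and -1.37. Leaving out mt-Co1 and mt-Ts1, chosen after seeing the data, left 25 called members among WT and 33 among KO cells.

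Whether the replicate numbers pair the libraries was not settled. Deviations of same-numbered KO and WT libraries correlated at 0.01 to 0.03 in microglia and at -0.08 to 0.02 in astrocytes. Differently numbered ones correlated at -0.0225 to -0.000126 in microglia and at -0.0587 to 0.126 in astrocytes, the highest being KO 2 with WT 3, both of day 9. With the replicate block, 0 members were called in either cell type, and the mRNA medians were -0.81 in microglia and -0.01 in astrocytes.

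Leaving out each library in turn gave 0 called members between KO and WT microglia and between KO and WT astrocytes, 0 to 1 for the interaction (mt-Td, without KO microglia 1), 22 to 27 for WT microglia against WT astrocytes and 34 to 35 for KO microglia against KO astrocytes. The mRNA medians ranged from -0.98 to -0.54, -0.40 to 0.39, -1.21 to -0.44, -2.55 to -1.80 and -3.27 to -2.93 in the same order. Leaving out KO astrocytes 2 or WT astrocytes 3, both of day 9, gave the same median, as age then fits the other. It was -0.40 between KO and WT astrocytes and -0.44 for the interaction. The median between KO and WT astrocytes was also positive with quantile normalisation (0.08), without the age covariate (0.02) and without KO astrocytes 3 (0.01). Depth could be estimated only roughly and relative to KO microglia 2, and no counting interval could be given.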
